A study of Saccharomyces cerevisiae with 4 samples.

Results

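The regions described here are the 20 ends of 10 chromosomes of budding yeast, taken as the first and last 11 restriction fragments of chromosomes II, IV, V and VII to XIII. They hold 220 of the 4388 fragments in the map made at 25 °C, and the same fragments were followed in the map made at 37 °C. The fragments carry no names in the deposited maps. Chromosome borders were therefore set at given row numbers, each moved by 0 to 8 fragments to the place that the fewest contacts crossed. A fragment spanned 2.71 kb on average, so an end covered about 29.8 kb.

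In Hi-C, neighbouring stretches of DNA are ligated to each other in fixed nuclei, and sequencing counts the ligated pairs, called contacts. The strain was BY4742, a laboratory strain of Saccharomyces cerevisiae, grown in rich medium (YPD) at 25 °C to mid-log phase and then divided. One aliquot was fixed at 25 °C. The other received fresh prewarmed YPD, was shaken at 37 °C for 15 minutes and was fixed at 37 °C. Both aliquots were fixed in 3% formaldehyde. Temperature of growth, fresh medium and temperature of fixation cannot be told apart. There were 2 biological replicates per temperature, combined by the authors into 1 map each. No replicate error could be computed, no test was run, and intervals are exact 95% intervals for counts. They cover counting error only, since reads of amplified libraries are not independent molecules.

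Telomeres of yeast are bound by Rap1 and the Sir proteins and lie in a few clusters at the nuclear envelope. Centromeres are tethered to the spindle pole body by microtubules, so each chromosome arm runs from that point towards the envelope. The length of an arm thereby limits where its telomere can lie. The DNA next to telomeres is repetitive and holds gene families with copies at many ends, which makes reads from it hard to place.

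Depth was lower at the ends and at 37 °C. The 25 °C map held 5920062 contacts, with a median of 2729 per fragment, and the 37 °C map 1937970, with a median of 718. The 2% of fragments with the fewest contacts in one map or the other were dropped, which removed 44 of the 220 end fragments (20%) and 1.49% of all others. Over all 220 end fragments, dropped ones included, the median was 2660 contacts at 25 °C against 2733 elsewhere, and 593 against 722 at 37 °C. The median of kept fragments alone was not computed. The left end of XI kept 4 of its 11 fragments, the right end of VIII 5 and the right end of IX 6, and the other ends kept 7 to 10. When single fragments were assigned to chromosomes by their contacts, the borders of IV, V, VIII, X and XI moved by -1, -3, 1, 5 and -1 fragments. Fragments of 5 ends then fell to the neighbouring chromosome: 5 at the left end of XI, 3 at the right end of V, and 1 each at the right ends of IV and XI and the left end of IX. Of these only 1, at the right end of V, was among the kept fragments. Values with those borders are given below for the left end of XI and for the number of ends lower at 37 °C. They are also given at 25 °C for both ends of the same chromosome and for ends with centromeres.

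In the gene table of build R64, the outer 30 kb of these chromosome ends were sparse in genes. The 20 ends held a median of 12 protein-coding genes (range 5 to 18), against 16 (quartiles 14 and 18) in 256 interior windows of the same length. They held 60 of the 101 genes of the listed families on these chromosomes (59.4%), 1 to 8 per end. The families were listed because genes of these names are known to lie at ends. Genes were grouped by name, which can cover unlike proteins, so the share is not that of related copies alone. Of PHO genes 3 of 12 lay at these ends and of THI genes 2 of 8, against 13 of 16 for PAU and 8 of 9 for COS. PAU genes, which encode small cell-wall mannoproteins, were annotated at 13 ends. COS genes, which encode membrane proteins of the endosome, lay at 8. Genes of YRF1, the helicase encoded by the Y' repeat, numbered 5 at 4 ends. The fragments could not be placed on these coordinates exactly, so no gene has a contact value of its own.

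Ends of different chromosomes met more often than expected in both maps. The expected count of a pair of fragments is the product of 2 fragment factors, fitted so that each fragment's total of inter-chromosomal contacts is matched, and the ratio is observed over expected contacts. Over the 180 pairs of ends on different chromosomes the ratio was 2.05 at 25 °C (95% interval 2.01 to 2.08, 14087 contacts). At 37 °C it was 1.83 (1.77 to 1.89, 3538 contacts). The contacts were spread thinly: of 13912 fragment pairs, 42.2% were empty at 25 °C and 79.2% at 37 °C, and no single fragment pair held more than 9 contacts at 25 °C or 5 at 37 °C. Since the fit matches totals, an excess between ends lowers the ratio of the same fragments with everything else.

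The farther a fragment lay from its own end, the less it met the ends of other chromosomes. At 25 °C the ratio was 2.28 for fragments 1 to 5 (2.24 to 2.33), 1.93 for fragments 6 to 11 and 1.49 for fragments 12 to 22 (1.48 to 1.51). It was 1.21 for fragments 23 to 33, 1.06 for fragments 34 to 44 and 0.980 for fragments 45 to 60. Thus the excess did not stop at the 11th fragment, and summed over the ends it reached the expected level at about 45 fragments. The sum joins arms of 26 to 391 fragments and was not matched on distance to the centromere. In the 12 to 22 class all 20 ends were still above 1 at 25 °C, from 1.10 to 2.06, and in the 23 to 33 class 16 of 20 were. In the 34 to 44 class 15 of 19 measured ends were above 1, with single ends from 0.396 to 1.19.

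At 37 °C the same classes gave 2.03, 1.73, 1.40, 1.19, 1.05 and 1.01. The difference between the maps lay in the outer fragments: the log2 ratio of 37 °C over 25 °C was -0.17 for fragments 1 to 5 (-0.23 to -0.11), -0.15 for fragments 6 to 11 (-0.20 to -0.11) and -0.09 for fragments 12 to 22 (-0.13 to -0.06). Farther in, its intervals included 0, from -0.06 to 0.02 for fragments 23 to 33. The difference at fragments 12 to 22 was smaller without a class of fragments described below, at 1.52 for 25 °C and 1.50 for 37 °C. The outermost fragment was measured at only 4 of the 20 ends, with 253 and 61 contacts, and the 2nd fragment at 11. A contact between 2 end fragments enters once for each, so the intervals for fragments 1 to 11 are somewhat too narrow.

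**Figure D1:**
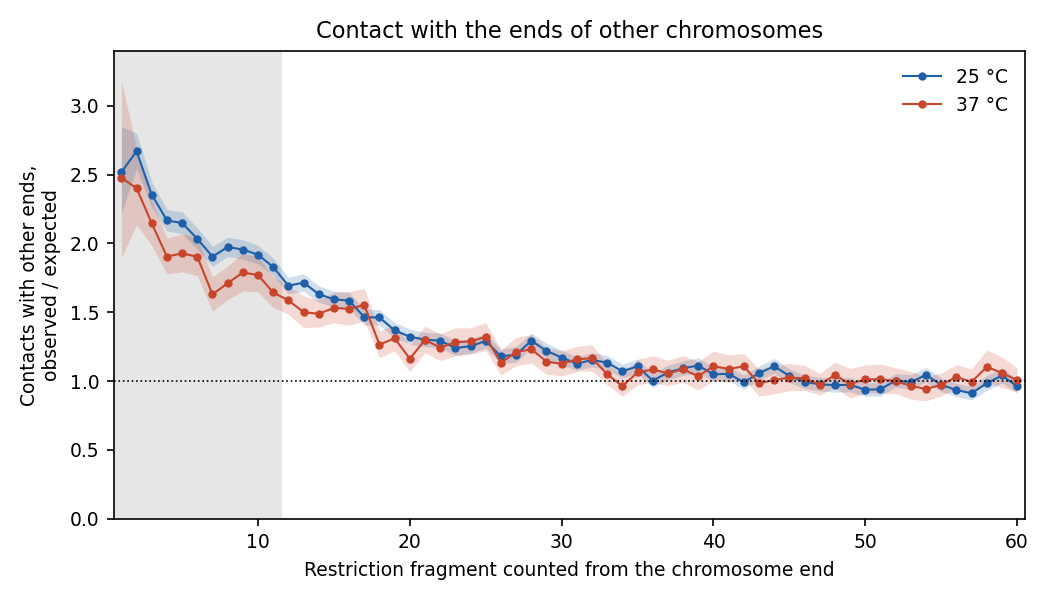
Contacts of each fragment with the 11-fragment ends of the other chromosomes, observed over expected (vertical axis), against the fragment's place counted from its own end (horizontal axis), summed over the ends that kept that fragment. Bands are 95% Poisson intervals and grey marks the end regions; the 25 °C line starts at 2.52 and reaches about 1 near fragment 45, and the 37 °C line lies below it over most of the end region.

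Each of the 20 ends met the other ends more often than expected, with an interval above 1 in both maps. Over 257 interior windows of 11 fragments on the same chromosomes, 19.8% had such an interval with the ends at 25 °C and 16% at 37 °C. Ratios ranged from 1.65 at the left end of XII to 2.77 at the left end of VII at 25 °C. At 37 °C they ranged from 1.32 at the left end of IV to 2.65 at the left end of XI. To set each end against DNA equally far from a centromere, its pairs were compared with pairs of interior windows at the same distances on longer arms. This is called the matched value below, and its interval takes the interior as fixed. It was above 1 in both maps for the 19 ends that had interior windows. The right end of IV, on the longest arm, had none.

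The shortest arms had moderate ratios but high matched values. On chromosome IX the right arm was 26 fragments long, and its end had a ratio of 1.94 at 25 °C (1.82 to 2.06) and 1.64 at 37 °C, with matched values of 2.89 and 2.22. Its only listed gene was PAU15. On chromosome VIII the left arm of 36 fragments, with COS8 and PAU13, gave 2.03 and 2.00, with matched values of 2.54 and 2.34. On chromosome V the left arm of 52 fragments, with the hexose transporter gene HXT13, gave 2.20 and 2.14, with matched values of 2.29 and 2.26. The ratios of these 3 ends lay within the range of longer arms, while their matched values were the 3 highest in both maps. The left end of XII, on an arm of 57 fragments with PAU18, had the lowest ratio of all at 25 °C (1.65, 1.56 to 1.73) and 1.61 at 37 °C. Its matched values were 1.64 and 1.66.

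Arms of 95 to 148 fragments ended in regions with ratios of 1.77 to 2.34 at 25 °C. Chromosome XI ended on its right arm in a region with FLO10, a gene for a flocculin that makes cells adhere, and GEX2, a gene for a glutathione exchanger. It gave 2.31 at 25 °C (2.21 to 2.42, 2027 contacts, the most of any end) and 1.95 at 37 °C. Chromosome II ended on its left in a region with PAU9, at 2.10 (2.00 to 2.21) and 2.36 (2.14 to 2.59), the 1 end whose log2 interval lay above 0 (0.16, 0.01 to 0.32). That interval lay above 0 in 5 of 12 alternative settings and not in the other 7, and the value was -0.10 with ends of 22 fragments. For chromosome XIII the left end, which holds PHO84 (the high-affinity phosphate transporter) and COS3, gave 1.88 and 1.80. Chromosome X had ratios of 2.29 and 1.93 at its left end and 2.00 and 1.71 at its right. Its left end holds IMA4 and IMA5, genes for isomaltases that split disaccharides, and the hexose transporter genes HXT8 and HXT9. The left end of IX, with the related set IMA3, HXT12, VTH1 and PAU14, gave 1.77 and 1.61. At the right end of V, with YRF1-2, the values were 2.34 and 2.29.

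Among longer arms the ratios were spread most widely. The left end of VII (208 fragments, with COS12 and PAU11) had the highest ratio at 25 °C, 2.77 (2.62 to 2.92), and 2.45 at 37 °C. The left end of XI (175 fragments) followed with 2.61 (2.44 to 2.79) and 2.65 (2.32 to 3.01), from only 4 kept fragments. With borders by single fragments this end gave 2.42 (2.31 to 2.54) and 2.55 (2.33 to 2.79). It holds FRE2, a gene for a ferric reductase, and COS9. The right end of II, with the maltose genes MAL31, MAL32 and MAL33, stood at 1.76 (1.67 to 1.86) and 1.35 (1.23 to 1.49), and that of VII, with MAL11, MAL12 and MAL13, at 1.87 and 1.67. Matched values at these 2 ends were 1.35 and 1.45 at 25 °C. The left end of IV, which holds HXT15, MPH2 and COS7, gave 1.83 (1.71 to 1.95) and 1.32 (1.14 to 1.53). The right end of VIII, with the acid phosphatase gene PHO12 and IMD2, gave 2.04 and 1.87. The longest arms, the right arms of XIII, XII and IV, ended at 2.10, 1.66 and 2.17 at 25 °C and at 1.95, 1.53 and 1.87 at 37 °C. The right end of XII, which lies beyond the rDNA array, had the lowest matched value, 1.13 at 25 °C and 1.07 at 37 °C, from 1 interior window.

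**Figure D2:**
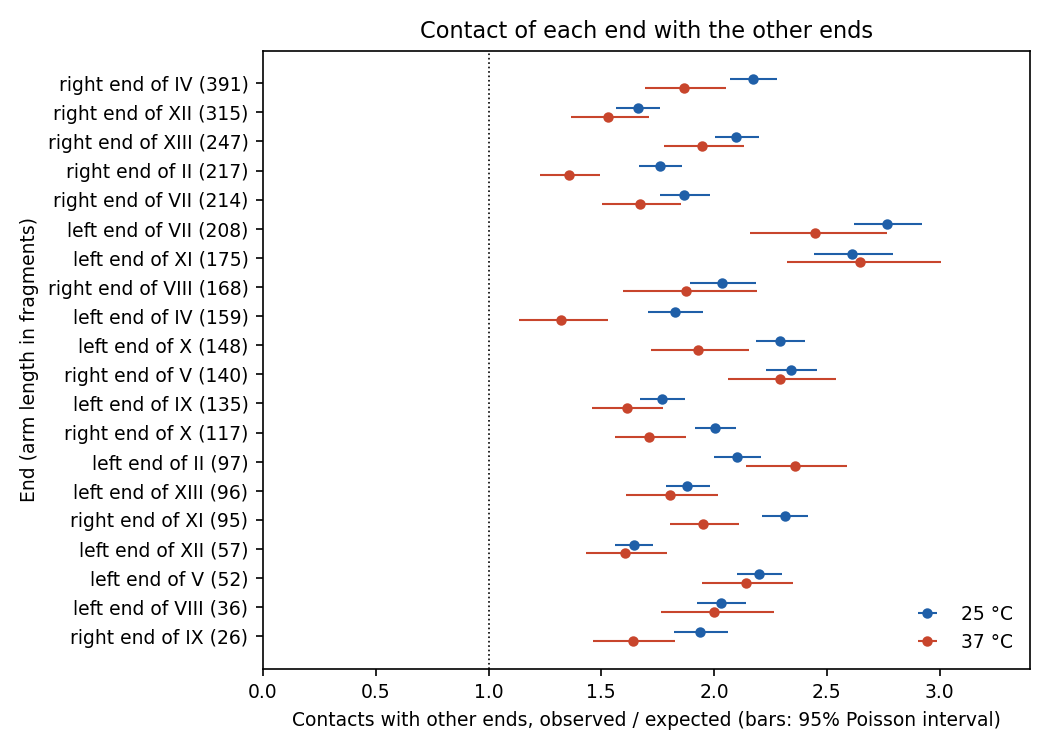
Observed over expected contacts of each end with the ends of the other chromosomes (horizontal axis), with ends ordered by arm length in fragments, given in brackets. Points are the 25 °C and 37 °C maps with 95% Poisson intervals; all 40 points lie above 1, and 18 of the 20 ends have the lower point at 37 °C.

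The ratio was lower at 37 °C for most ends. Over all pairs the log2 ratio was -0.16 (-0.21 to -0.11), and 18 of 20 ends were lower. The interval lay below 0 for 7 ends (35%), against 8.56% of interior windows in their contacts with the ends, and above 0 for 1 end (5%), against 12.1%. The lowest were the left end of IV at -0.47 (-0.71 to -0.23) and the right end of II at -0.38 (-0.54 to -0.22). The left and right ends of X stood at -0.25 and -0.23, the right ends of XI and IX at -0.24 each, and the right end of IV at -0.22. One class of fragments moved with this difference. For 579 of 4282 kept fragments (13.5%), 23 of them in the ends, the fitted factor at 37 °C relative to 25 °C was above 2 times the median ratio, and 4 of these lay at the right end of II. Without them, ends met at 2.09 at 25 °C and 1.99 at 37 °C, with a log2 ratio of -0.08 (-0.14 to -0.01). Then 16 of 20 ends were lower, the interval lay below 0 for 2, the left ends of IV and X, and the right ends of IV and IX turned to 0.02 and 0.03. What sets those fragments apart was not tested. With borders by single fragments 15 of 20 ends were lower, with 6 intervals below 0 and 0 above. With borders not moved the right end of IX turned to 0.24, with an interval above 0 (0.09 to 0.39). With ends of 6 fragments 13 of 18 were lower. Across 12 alternatives the number of intervals below 0 ran from 2 to 11, the latter with ends of 22 fragments. The share of interior windows was computed in the main setting only, so counts in the alternatives have no such share beside them. Whether the 2 left without the raised fragments exceed it was not tested.

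Single pairs of ends varied about this level. Of the 180 pairs, 88 had at least 10 expected contacts in each map, and the counts that follow cover those. At 25 °C they had a median ratio of 1.85 and quartiles of 1.50 and 2.27. At 37 °C the median was 1.64, with quartiles of 1.29 and 2.03. The interval lay above 1 for 74 pairs (84.1%) at 25 °C, against 25.7% of 28220 pairs of interior windows, and for 48 (54.5%) at 37 °C, against 12.9%. It lay below 1 for 1 pair in each map, against 30.2% and 17.5%. The log2 ratios of the pairs in the 2 maps correlated with a Pearson r of 0.63 over 88 pairs that share fragments and ends, and with 0.72 over the interior pairs.

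Among these 88, the 5 highest pairs at 25 °C all held an end of XI or IX. The left end of V with the right end of IX had 141 contacts and a ratio of 4.06 (3.42 to 4.79), with 35 contacts and 2.90 (2.02 to 4.03) at 37 °C. Both arms are short, of 52 and 26 fragments. The right ends of IX and XI had 132 contacts (3.74) and 52 contacts (2.74). The right ends of X and XI had 228 contacts (3.41, 2.98 to 3.88) and 65 (2.56, 1.98 to 3.27). The remaining 2 joined the right end of XI with the left ends of X and V. The first gave 170 contacts (3.14) and 53 (3.49), and the second 167 (2.84) and 46 (2.35). Arm lengths in these 5 pairs differed by 22 to 69 fragments. With the limit of 10 expected contacts set at 25 °C alone, which 179 pairs passed, others stood among the highest. They were the left end of VIII with the right end of IX (4.65, 124 contacts), the left ends of VII and XI (4.63, 57 contacts) and the right end of IV with the left end of XI (4.44, 91 contacts). Pairs of the left end of VII with the right ends of IV and V gave 3.92 and 3.75. Arm lengths in these 5 differed by 10, 33, 216, 183 and 68 fragments. At 37 °C, where each had fewer than 10 expected contacts, they gave 5.88, 8.54, 5.75, 3.16 and 3.30. Those values rest on 41, 23, 34, 21 and 15 contacts. The log2 ratio of 37 °C over 25 °C had an interval above 0 for the left ends of VII and XI (0.88, 0.12 to 1.60). For the other pairs of these 5 it included 0.

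The 5 lowest of the 88 pairs at 25 °C joined arms of unlike length, differing by 160 to 365 fragments, and 4 of them held the right end of IX. The lowest was the right end of VII with the right end of IX, with 11 contacts and a ratio of 0.469 (0.234 to 0.839). At 37 °C it had 18 contacts and 1.48 (0.876 to 2.34), the highest log2 ratio of the 88 (1.66, 0.50 to 2.89). The right end of IX with the right ends of IV, XII and XIII gave 0.726, 0.786 and 0.810, from 23, 22 and 29 contacts, each with an interval that included 1. The right end of II with the left end of XII gave 0.858 (0.633 to 1.14, 48 contacts) and 0.903 at 37 °C (16 contacts). With the limit on expected contacts set at 25 °C alone, the left end of VIII with the right end of XII joined the lowest. It gave 0.503 (0.298 to 0.795, 18 contacts), so its interval also lay below 1, and its arms differed by 279 fragments. At 37 °C, where its expected contacts were under the limit, it gave 0.844 (0.310 to 1.84) from 6 contacts.

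Between the maps, 57 of the 88 pairs were lower at 37 °C and 31 higher, with a median log2 ratio of -0.17 against -0.00 over interior pairs. The interval lay below 0 for 13 pairs (14.8%), against 5.72% of interior pairs, and above 0 for 3 (3.41%), against 6.89%. The lowest was the right end of II with the left end of X, at 93 and 12 contacts (log2 -1.22, -2.22 to -0.35). The right ends of II and IV had 118 contacts (2.50) and 22 (1.10), a log2 ratio of -1.18 (-1.91 to -0.52). Lower values also came from the left end of V with the right end of VII (-1.15, 69 and 10 contacts), the left end of IV with the right end of X (-1.11, 77 and 10) and the right ends of IX and XIII (-1.22, 29 and 5, interval -2.94 to 0.17). Among the highest were 3 pairs with the left end of XII: with the right end of VII (0.88, 0.04 to 1.67), the left end of II (0.63, 0.09 to 1.15) and the right end of XIII (0.66, -0.09 to 1.36). The right end of IX with the right end of XII stood at 0.58 (-0.50 to 1.61). With 5 to 65 contacts per named pair at 37 °C, single pairs are known only roughly.

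**Figure D3:**
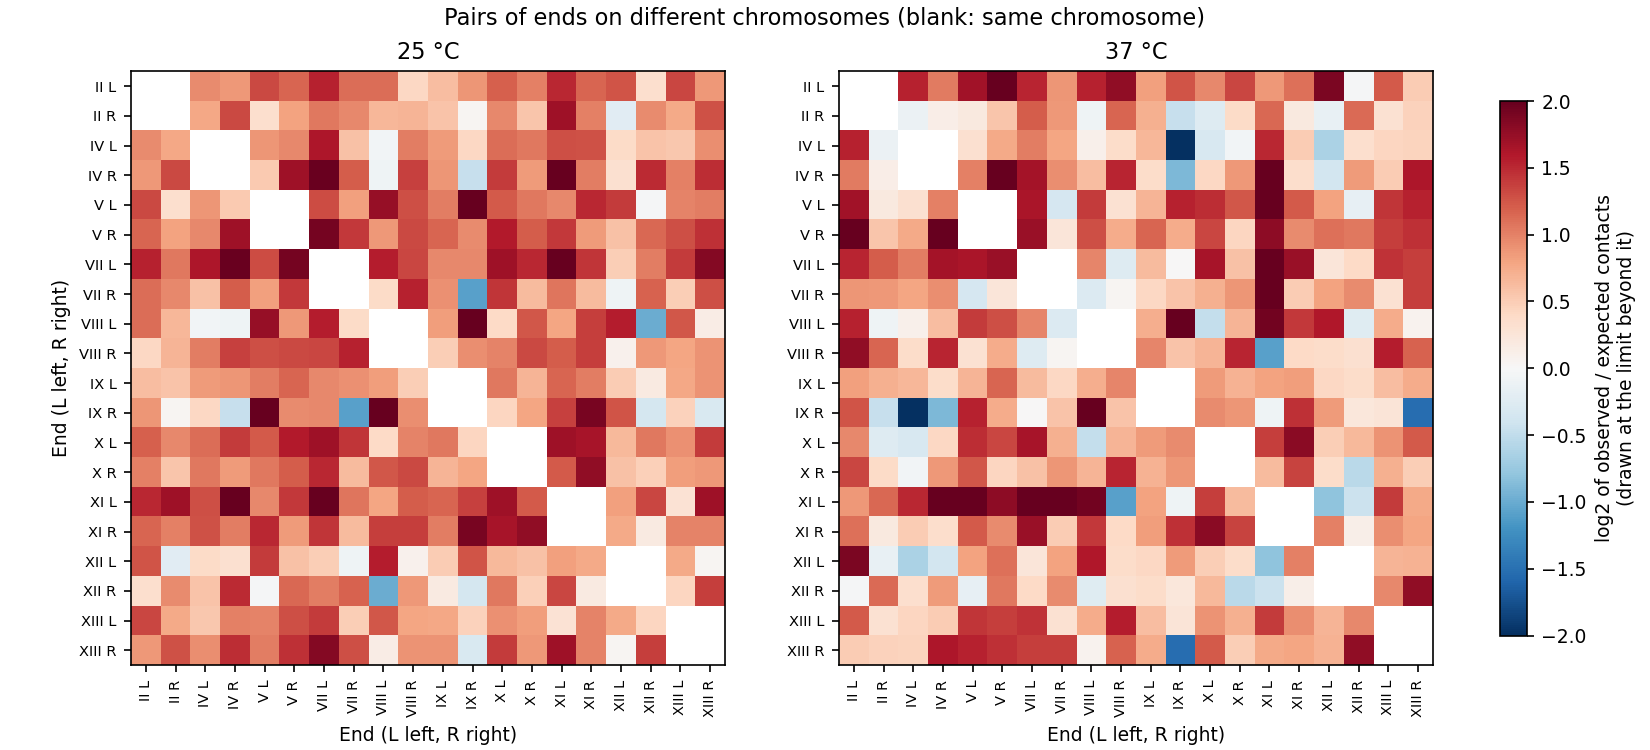
Log2 of observed over expected contacts for each pair of ends on different chromosomes (colour), at 25 °C and 37 °C, with the 20 ends along both axes. Values beyond the colour scale, among them 1 pair with 0 contacts at 37 °C, are drawn at its limit; most cells are red, and blue cells mark the 10 of 180 pairs below 1 at 25 °C and the 24 at 37 °C. The right end of IX is in 4 of the 10, and the right ends of II, IX and XII and the left end of IV are in 5 each of the 24.

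Ends of arms of like length met more often than ends of arms of unlike length. At 25 °C the ratio was 2.41 for 24 pairs whose arms differed by less than 25 fragments (2.31 to 2.51, 2351 contacts). It was 2.34 for 30 pairs differing by 25 to 49, 2.15 for 49 pairs differing by 50 to 99, and 1.76 for 77 pairs differing by 100 or more (1.71 to 1.80, 5179 contacts). At 37 °C the same classes gave 2.11, 2.25, 1.94 and 1.54. The ratio of the first class to the last was 1.37 in both maps (1.31 to 1.44 at 25 °C, 1.24 to 1.52 at 37 °C).

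Interior DNA showed an order of the same kind. Pairs of interior windows at the same centromere distances stood at 1.29, 1.25, 1.19 and 1.05 in the 4 classes at 25 °C, and at 1.28, 1.18, 1.14 and 1.03 at 37 °C. Ends with such interior windows of other chromosomes were near expectation, at 1.00 over all pairs at 25 °C and 1.01 at 37 °C. Over the 161 end pairs with interior windows, the matched value was 1.74 at 25 °C (1.71 to 1.77) and 1.61 at 37 °C (1.56 to 1.67). By class it was 1.86, 1.87, 1.79 and 1.55 at 25 °C, and 1.65, 1.91, 1.67 and 1.39 at 37 °C. At 25 °C it was above 1 for all 23 pairs differing by less than 25 fragments with enough expected contacts. Of such pairs differing by 100 or more, 52 of 60 (86.7%) were above 1. At 37 °C these counts were 12 of 12 and 22 of 29 (75.9%).

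The order by arm length was weaker once matched and depended on how the matching was done. Matched, the first class stood at 1.20 times the last (1.14 to 1.26) at 25 °C, against 1.19 times (1.07 to 1.33) at 37 °C. It was 0.94 and 0.79 with borders at the given rows, not moved. It was 0.93 and 1.01 when interior windows were summed over all pairs of a class, an alternative chosen after seeing the data. Without chromosome XII it was 0.99 at 25 °C and 1.02 at 37 °C, without the right end of XII 1.07 and 1.06, and without chromosome IV 1.08 at 25 °C. Whether the excess over interior DNA was larger for ends of like arms than for ends of unlike arms thus changed with these choices. Unmatched, the first class stood above the last in each of these settings, at 1.08 to 1.50, but with borders not moved the interval at 37 °C included 1 (0.977 to 1.19).

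Arm size itself, with a division at 120 fragments chosen after values were seen, gave a wider contrast of matched values. Pairs with both arms under 120 fragments (28 pairs) and with both at or above it (64 pairs) had nearly equal ratios at 25 °C, 2.39 and 2.38. Interior windows at the same distances existed for all 28 short pairs and for 53 of the long pairs, whose ratio was 2.27, and stood at 1.06 and 1.49. Matched, the short pairs stood at 2.25 (2.18 to 2.33) and the long pairs at 1.53 (1.48 to 1.58) at 25 °C, and at 2.26 and 1.32 at 37 °C. Pairs of a short and a long arm stood at 1.71 unmatched (88 pairs), and the 80 with interior windows at 1.73 unmatched and 1.66 matched at 25 °C.

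**Figure D4:**
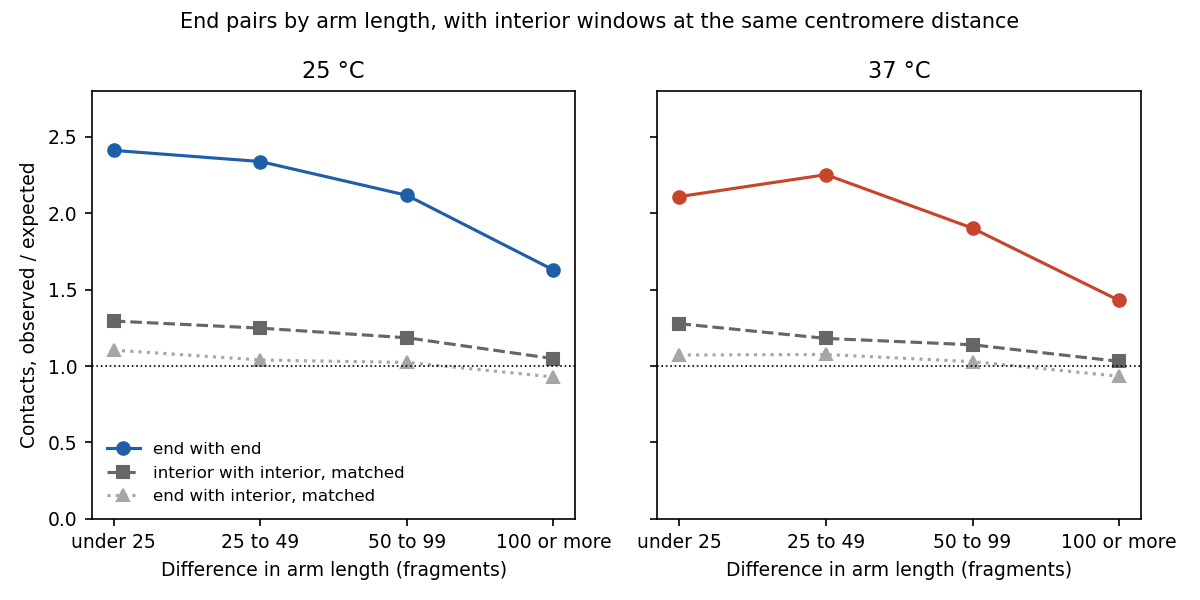
Observed over expected contacts (vertical axis) by difference in arm length in fragments (horizontal axis), over the 161 end pairs that have interior windows, with interior pairs and end-interior pairs at the same centromere distances. The end line falls from 2.41 to 1.63 at 25 °C while the interior line falls from 1.29 to 1.05.

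The left and right ends of one chromosome also met more often than interior DNA of the same separation, for most chromosomes. Expected contacts here came from the inter-chromosomal factors, and interior pairs at the same number of fragments apart were the comparison. Few chromosomes were long enough to cover the whole separation, 1 for VII and 2 each for II, XII and XIII. For the 9 chromosomes with such pairs the ends stood at 2.05 times the interior (1.91 to 2.20) at 25 °C, against 1.73 times (1.52 to 1.95) at 37 °C. At 25 °C the value was 1.81 with borders assigned by single fragments and 1.70 with borders not moved. Chromosome X was highest, with 212 contacts (3.27 times) and 62 contacts (3.20 times). Chromosome XI was lowest at 25 °C, with 14 contacts and 0.57 times the interior (0.31 to 0.96), and 14 contacts and 1.01 times (0.55 to 1.69) at 37 °C. Chromosome XII, whose ends lie on opposite sides of the rDNA, had 35 contacts (0.61 times, 0.42 to 0.84) and 14 contacts (0.88 times, 0.48 to 1.47). The separation was counted in mapped fragments, so the rDNA repeats are left out of it. At 37 °C the intervals over interior of VIII (0.48 to 2.83) and IX (0.80 to 1.64) also included 1. Between the maps the ends of XI, V and X had log2 intervals above 0. These log2 ratios are not relative to interior pairs, whose own ratio was 1.13 at 25 °C and 1.54 at 37 °C. The log2 ratio was 1.42 (0.24 to 2.59) for XI, whose left end kept 4 fragments. Chromosome V had 95 and 39 contacts (log2 1.13, 0.56 to 1.68), and its right end holds the 1 kept fragment assigned to VI. For X it was 0.50 (0.07 to 0.91). Chromosome II had 142 and 34 contacts (log2 -0.55, -1.13 to 0.00).

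Ends met the centromere regions of other chromosomes (7 fragments to each side) less often than expected, the more so the longer the arm. The ratio was 0.448 at 25 °C (0.438 to 0.459) and 0.506 at 37 °C (0.484 to 0.528). At 25 °C it ran from 1.45 at the right end of IX (26 fragments, 850 contacts) and 0.874 at the left end of VIII to 0.159 at the right end of XII (123 contacts). Interior windows at the same distances followed a like course, at 1.50 for the distance of the right end of IX and 0.968 for that of the left end of VIII. The left end of XII stood apart, at 0.953 (0.895 to 1.01, 990 contacts) against an interior value of 0.531, and at 0.965 against 0.632 at 37 °C.

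Over matched interior windows, ends met centromeres at 1.14 at 25 °C (1.12 to 1.17), above the interior at 12 of 19 ends, and at 0.98 at 37 °C (0.94 to 1.02), above it at 10 of 19. Between the maps the log2 ratio of ends with centromeres was 0.17 (0.10 to 0.25), higher at 37 °C for 17 of 20 ends, with 5 intervals above 0 and 1 below. Interior windows were also higher: of 235 that held no centromere, 193 (82.1%) were higher with centromere regions at 37 °C, 58.7% had an interval above 0 and 4.68% below, and their median log2 ratio was 0.36. Among the ends it was largest at the right end of XII (0.97, 0.52 to 1.41) and the right end of II (0.85, 0.55 to 1.15), and lowest at the right end of IX (-0.40, -0.62 to -0.19). With at most 5 contacts counted per fragment pair it was 0.03 (-0.04 to 0.10), and with ends of 6 fragments 0.07 (-0.04 to 0.18).

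**Figure D5:**
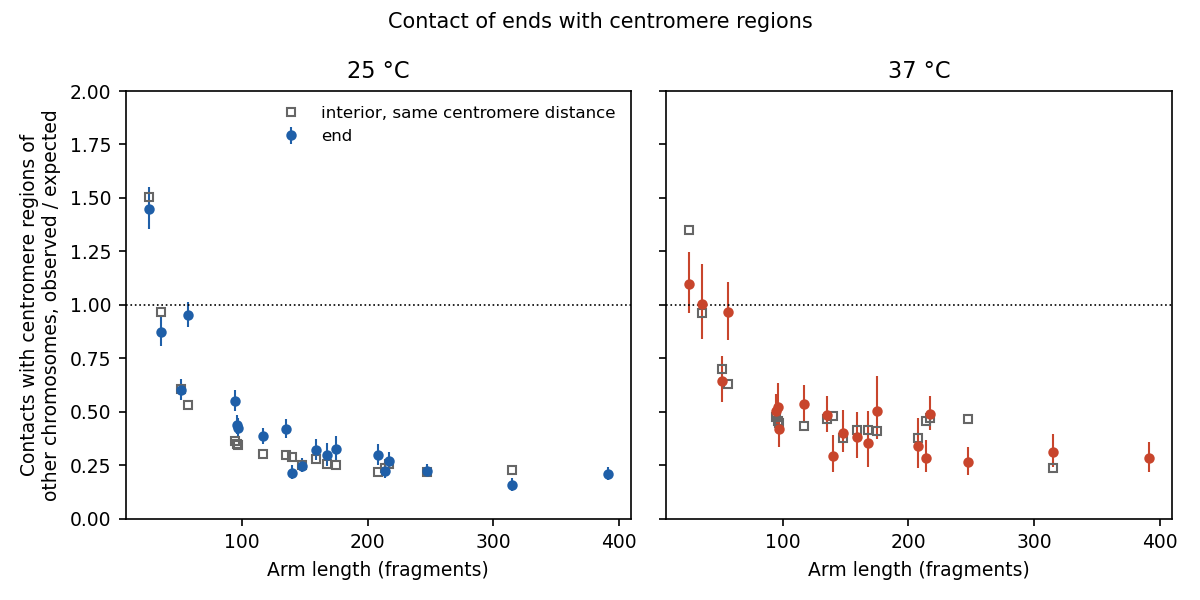
Observed over expected contacts of each end with centromere regions of other chromosomes (vertical axis) against arm length in fragments (horizontal axis), with 95% Poisson intervals. Open squares are interior windows at the same centromere distance; both fall with distance, from 1.45 and 1.50 on the shortest arm, and the left end of XII at 57 fragments lies at 0.953, above its square at 0.531.

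Pairs were also grouped by the repeat-borne genes annotated at their ends. The grouping went by gene name alone, so Y' repeats without a gene named YRF1 were not counted. An end without YRF1 is thus not shown to lack Y' repeats. YRF1 genes lie within Y' repeats at the right ends of IV (YRF1-1, IV:1526321-1531711), V (YRF1-2, V:571480-576525), VII (YRF1-3, VII:1084864-1090591) and XII (YRF1-4 and YRF1-5, XII:1067087-1077898), in R64. The 6 pairs with YRF1 at both ends stood at 2.62 (2.41 to 2.84) at 25 °C, 60 pairs with it at 1 end at 1.91 and 114 with it at neither at 2.09. At 37 °C they stood at 2.16, 1.74 and 1.87. All 4 YRF1 ends lie on arms of 140 fragments or more, and over matched interior the order differed, at 1.61, 1.46 and 1.86 at 25 °C and 1.17, 1.40 and 1.72 at 37 °C. Those values rest on the 3, 44 and 114 pairs that had interior windows. For COS genes the intervals overlapped at 25 °C: 27 pairs with a COS gene at both ends stood at 1.98 (1.88 to 2.07), 90 pairs with 1 at 2.06 (2.01 to 2.11) and 63 with none at 2.05 (2.00 to 2.11). At 37 °C they stood at 1.72 (1.56 to 1.90), 1.76 (1.67 to 1.84) and 1.96 (1.86 to 2.06), where the last 2 intervals did not overlap. Over matched interior the COS classes stood at 1.67, 1.73 and 1.78 at 25 °C and 1.41, 1.53 and 1.83 at 37 °C. How reads from near-identical copies were placed is not given in the sources used here, and its part in these values was not tested.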

How the data were processed

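The authors deposited 1 contact map per temperature, with raw whole-number counts of joined fragment pairs and both replicates combined. Per the labels' protocols, DNA was cut with HindIII. The aligner was Bowtie 1.1.0 and the build R64, as named in the submitters' processing notes. Steps after alignment were not given.

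Maps were aligned by fragment order and totals, which paired 4382 fragments. The unpaired 6 and 1 held at most 11 contacts each. Expected contacts came from iterative proportional fitting to the inter-chromosomal totals, with XIV to XVI as 1 block, after the lowest 2% of fragments were left out. Centromeres were placed at the peak of inter-chromosomal contact with other centromeres. Across the 10 chromosomes, their positions correlated with the gene table at a Pearson r of 0.996, with a median distance of 4.11 fragments and a largest of 15.8, on VII. Interior windows lay at least 11 fragments inward of an end, outside the right arm of XII. For a class, each pair's interior ratio was weighted by the pair's expected contacts. Ratios carry exact Poisson intervals and log2 ratios between maps Clopper-Pearson intervals (95%).

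The fit and the measures were tested on simulated maps, in which the fit absorbed a small part of a simulated excess. Those maps took borders, centromeres and kept fragments from the real ones, so the placing of borders and centromeres was not tested. Python 3.11.15, numpy 2.4.6, scipy 1.17.1 and pandas 2.3.3 were used. The named pairs are the 5 highest and 5 lowest by ratio at 25 °C and by log2 ratio among pairs with at least 10 expected contacts in each map. Genes are those of the listed end families within 30 kb of an end. Members, classes and gene lists were chosen with earlier results of these data known. Alternatives changed the fit, the fragments left out, a cap on contacts, borders, end length, centromeres, interior windows and the chromosomes included.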

Additional observations from a re-analysis of the deposited data

How the results depend on the processing

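No paired analysis was possible because both replicates of a temperature were combined in 1 map. Values are given for 25 °C and then 37 °C. The excess between ends, unmatched and matched, stayed above 1 in every alternative, and the log2 ratio between ends stayed below 0 (-0.21 to -0.075). With the expectation not iterated, ends met at 1.89 and 1.69, matched at 1.68 and 1.55, ends of one chromosome over interior at 1.89 at 25 °C, ends with centromeres at 0.414 and 0.469, and fragments 12 to 22 with ends at 1.38 and 1.29. A fit over the 10 chromosomes gave a matched value of 1.82 at 25 °C, ends with centromeres of 0.487 and 0.550, and 1.18 over interior at 25 °C. A cap of 5 gave 0.496 for ends with centromeres at 25 °C and a log2 ratio of 0.033. Without the raised fragments, ends met at 2.09 and 1.99 (log2 -0.075), matched at 1.78 and 1.70, with centromeres at 0.433 and 0.467 (1.05 over interior at 37 °C), and fragments 12 to 22 at 1.52 and 1.50. The log2 ratios of the right ends of IV and IX turned to 0.017 and 0.030.

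With borders not moved, like over unlike arms was 0.94 and 0.79 matched and 1.25 and 1.08 unmatched. Ends of one chromosome stood at 1.70 and 1.46 over interior. Ends with centromeres were 0.476 at 25 °C, and 1.03 over interior at 37 °C. The log2 ratio of the right end of IX turned to 0.24, with an interval above 0 (0.09 to 0.39). That of the left end of IV with the right end of X turned to 0.13 (-0.65 to 0.85). Ends of 6 fragments gave 2.53 and 2.18 (log2 -0.21), matched 2.20 and 2.01, and 3.06 for one chromosome's ends at 25 °C. With centromeres they gave 0.471 and 1.20 over interior at 25 °C, and a log2 ratio of 0.073. Ends of 22 fragments gave 1.53 and 1.43, matched 1.33 and 1.27, like over unlike 1.08 at 25 °C, and 1.41 and 1.26 for one chromosome's ends. With centromeres they gave 0.507 and 0.582, or 1.07 and 1.03 over interior. There the log2 ratios of the left ends of II and IV turned to -0.10 and 0.016, and that of the left ends of II and XII to -0.12. The left end of XII with the right end of XIII turned to 0.654 at 37 °C.

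Centromeres placed on the 37 °C map gave 1.18 for ends with centromeres over interior at 25 °C. The matched value at 25 °C was 1.70 with interior windows 33 fragments inward and 1.68 with the right arm of XII as interior. Without the right end of XII it was 1.82 and 1.68, and like over unlike 1.07 and 1.06. With 2 alternatives chosen after seeing the data, borders by single fragments gave 1.81 for one chromosome's ends and 0.435 for ends with centromeres at 25 °C, and interior windows summed over pairs gave matched values of 1.95 and 1.77 and like over unlike of 0.93 and 1.01. A further one, which kept only end fragments of at least 0.5 of the median total, moved none of these results beyond its interval.

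Leaving out each chromosome in turn gave 1.97 to 2.16 and 1.75 to 1.90 between ends (log2 -0.18 to -0.13), and matched 1.66 to 1.94 and 1.52 to 1.82. Like over unlike ran from 0.99 (without XII) to 1.26 and from 1.02 to 1.33 matched, and from 1.22 to 1.50 and 1.26 to 1.50 unmatched. Ends of one chromosome ran from 1.81 to 2.29 and 1.51 to 1.86. Ends with centromeres ran from 0.399 to 0.474 and 0.456 to 0.531 (log2 0.12 to 0.22), and over interior from 1.10 to 1.17 and 0.937 to 1.02. Where a value moved, the cause was not tested. Depth limits single pairs most: 88 of 180 had 10 expected contacts in each map.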
